A study of Mus musculus with 4 samples.

Results

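The miR-15/16 family was followed in small RNA from the retina of mouse embryos with and without the transcription factor gene Ptf1a. The members were the 8 arms mmu-miR-15a-5p, mmu-miR-15b-5p, mmu-miR-15b-3p, mmu-miR-16-5p, mmu-miR-195a-5p, mmu-miR-322-5p, mmu-miR-322-3p and mmu-miR-497a-5p (the species prefix is dropped for other arms and in later mentions), taken by name from the 1326 listed miRNA arms. All 8 had at least 10 counts in at least 2 libraries and so entered the test, which covered 584 arms. The groups were retina at E18.5 of Ptf1a-/- embryos (2 libraries), which lack both functional copies, and of Ptf1a+/- embryos (2 libraries), which keep 1. Ptf1a directs retinal progenitors to become amacrine and horizontal cells. The sources used here give neither strain, allele nor animals per library, and wild-type retina was not analysed here. Whether replicates stem from different animals is likewise unstated, and the p-values then measure only library-to-library spread, which may be technical.

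The family is defined by its seed, bases 2 to 8 of the mature miRNA, which pairs with target mRNAs. It is known for restraining the cell cycle: its targets include cyclins of the D and E types, the checkpoint kinases Chek1 and Wee1 and the survival gene Bcl2, and the human miR-15a and miR-16-1 genes are often lost in chronic lymphocytic leukaemia. In mouse, miR-195 has been tied to the exit of heart muscle cells from division after birth. A precursor gives a 5p and a 3p arm, of which usually only one is kept in the silencing complex as the guide.

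The mature sequences (RefSeq, GRCm38.p6) show what the 6 members with the family seed share and where they part. Bases 2 to 8 are in capitals.
miR-15a-5p: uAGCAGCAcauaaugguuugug
miR-15b-5p: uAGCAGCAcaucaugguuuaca
miR-16-5p: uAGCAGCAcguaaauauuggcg
miR-195a-5p: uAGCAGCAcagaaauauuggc
miR-322-5p: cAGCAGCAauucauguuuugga
miR-497a-5p: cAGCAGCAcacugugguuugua
The 3p arms among the members carry other seeds, so they belong to the family by precursor and not by target site.
miR-15b-3p: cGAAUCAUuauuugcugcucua
miR-322-3p: aAACAUGAagcgcugcaacac
The closest pair, miR-16-5p and miR-195a-5p, differed at 2 of 21 aligned bases (G10A and U11G, miR-16-5p first, counted from 1 at the 5′ end), and miR-15a-5p and miR-15b-5p at 4 of 22. RefSeq holds 4 further mouse miRNAs with this seed, miR-195b, miR-6342, miR-6353 and miR-6419, and none of the 4 was among the listed arms.

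The 8 members come from 7 precursors on 4 chromosomes (GRCm38). Mir15b (mature arms chr3:69009775-69009796 and chr3:69009813-69009834, plus strand) and Mir16-2 (miR-16-5p at chr3:69009918-69009939) lie in an intron of Smc4, which encodes a condensin subunit. Mir15a (miR-15a-5p at chr14:61632075-61632096, minus strand) and Mir16-1 (miR-16-5p at chr14:61631936-61631957) sit inside an intron of Dleu2, a long noncoding RNA gene. Mir497 (miR-497a-5p at chr11:70234730-70234751, plus strand) and Mir195a (miR-195a-5p at chr11:70235062-70235082) are neighbours, with Mir497b annotated on the opposite strand over Mir497. Mir322 (miR-322-3p at chrX:53054269-53054289 and miR-322-5p at chrX:53054306-53054327, minus strand), the mouse counterpart of human miR-424, opens an X-linked cluster with Mir503, Mir351, Mir542 and the Mir450 precursors. Since miR-16-5p is encoded at both the Smc4 and the Dleu2 locus, its reads cannot be assigned to either.

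The most frequent sequence of each of the 8 members was the same in all 4 libraries, and each began at the annotated 5′ end, so the seed was intact in both genotypes. The 3′ ends differed from the annotation in 4 members. The most frequent miR-15a-5p molecule was 2 bases longer at 24 nt, and that of miR-16-5p was 1 base shorter at 21 nt. The capitals again mark bases 2 to 8.
miR-15a-5p, most frequent: tAGCAGCAcataatggtttgtgga
miR-16-5p, most frequent: tAGCAGCAcgtaaatattggc
The most frequent forms of miR-15b-3p and miR-322-3p likewise lacked the last annotated base. The most frequent form of miR-16-5p therefore ends on the same base as miR-195a-5p. Their values were not whole in 3 of 4 libraries each, and those of miR-15a-5p and miR-15b-5p in 1 library each, as happens when reads are split between entries. The sources used here do not say how such reads were divided, so the division of counts among these 4 arms is uncertain. The values of miR-322-5p, miR-322-3p, miR-497a-5p and miR-15b-3p were whole throughout.

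Libraries held between 3647145 and 4385834 listed counts. The 10 most abundant arms took 67.9 and 72.1% of all counts in Ptf1a-/-, against 67.0 and 66.9% in Ptf1a+/-. The retinal miRNAs miR-9-5p, miR-124-3p, miR-183-5p, miR-182-5p, miR-96-5p and miR-181a-5p together reached 379233 and 534665 CPM (read counts per 1e6, scaled by the TMM method) in Ptf1a-/- and 362498 and 359323 CPM in Ptf1a+/-. The scarcest, miR-124-3p, had 1019 and 832 CPM in Ptf1a-/- and 1020 and 1033 CPM in Ptf1a+/-, so each was present. Of the 6, 0 passed the genotype test, 2 were above both Ptf1a+/- libraries (26.7% of all arms) and 3 below both (31.5% of all arms). The spread was unequal: over arms with 20 to 2000 summed counts, the Ptf1a-/- pair had a chi-square of 14.3 per degree of freedom against read sampling and the Ptf1a+/- pair one of 1.11 (chi-square p = 0.0535). Over all arms with 20 or more summed counts the Ptf1a+/- value was 1.85 (chi-square p = 6.99e-32) and the Ptf1a-/- value 120. Expected counts came from library totals without TMM factors. Those factors were 1.06 and 0.829 in Ptf1a-/- and 1.06 and 1.07 in Ptf1a+/-. The Ptf1a-/- chi-square values therefore include a scaling offset between its 2 libraries, whose part was not measured. The chi-square values cannot tell whether the Ptf1a+/- libraries come from different animals. Both were kept as replicates, and fits with that pair summed are given under the processing alternatives. Ptf1a mRNA was not measured, so the genotypes could not be checked.

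None of the 8 members passed the test between the genotypes. With edgeR's quasi-likelihood test and Benjamini-Hochberg adjustment over 584 arms (threshold 0.05), 0 of 8 were higher in Ptf1a-/-, against 6.16% of all arms, and 0 of 8 were lower, against 3.6% of all arms. No member had an unadjusted p under 0.05 with edgeR, with DESeq2 or with limma. The median log2 fold change of the 8 was 0.09, against -0.003 over all 584 arms, and 6 of 8 estimates were above 0, a direction that depends on scaling (1 of 8 above 0 with library size alone and 0 of 8 with the totals behind the deposited CPM, where the median of all arms was -0.18 and -0.34). For 0 of 8 members was the Ptf1a-/- pair wholly above the Ptf1a+/- pair (26.7% of all arms) and for 1 of 8, miR-322-5p, it was wholly below (31.5% of all arms). For miR-322-5p this held only by 25.03 CPM in Ptf1a-/- replicate 1 against 25.10 CPM in Ptf1a+/- replicate 2, in effect a tie. These are bulk libraries, in which fewer cells of a type and less RNA per cell cannot be told apart.

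mmu-miR-16-5p, the most abundant member, stood at 1288 and 1064 CPM in Ptf1a-/- replicates 1 and 2, against 1143 and 1123 CPM in Ptf1a+/-. One Ptf1a-/- library lay above both Ptf1a+/- libraries and the other below both. The log2 fold change was 0.05 ± 0.13 (SE, n = 2 each), with a 95% interval of -0.26 to 0.37 and an adjusted p of 0.826 (edgeR). Its rank by mean level was 75 of 1326 listed arms.

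mmu-miR-15a-5p, made from the same Dleu2 transcript as 1 of the miR-16 copies, had 53.9 and 43.4 CPM in Ptf1a-/- and 46.1 and 46.8 CPM in Ptf1a+/-. The Ptf1a-/- libraries again stood on either side of the Ptf1a+/- pair. Its log2 fold change was 0.07 ± 0.18 (95% interval -0.36 to 0.51, adjusted p = 0.828, edgeR).

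mmu-miR-15b-5p, from the Smc4 intron, had 141.7 and 101 CPM in Ptf1a-/- and 115 and 105 CPM in Ptf1a+/-, a log2 fold change of 0.14 ± 0.19 (95% interval -0.32 to 0.61, adjusted p = 0.708, edgeR). Its partner arm mmu-miR-15b-3p had 110 and 88.0 CPM in Ptf1a-/- and 88.8 and 84.2 CPM in Ptf1a+/- (0.20 ± 0.16, 95% interval -0.19 to 0.59, adjusted p = 0.491, edgeR). For both arms Ptf1a-/- replicate 1 was the highest library, and the groups overlapped. The estimate of miR-15b-3p was the largest positive one among the 8 members.

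mmu-miR-195a-5p had 40.6 and 45.6 CPM in Ptf1a-/- and 52.0 and 42.6 CPM in Ptf1a+/- (log2 fold change -0.13 ± 0.18, 95% interval -0.58 to 0.32, adjusted p = 0.733, edgeR). mmu-miR-497a-5p, encoded beside it and tied in mouse to the quiescence of muscle stem cells, had 44.9 and 35.4 CPM in Ptf1a-/- and 36.4 and 36.4 CPM in Ptf1a+/- (0.15 ± 0.19, 95% interval -0.32 to 0.61, adjusted p = 0.695, edgeR). The groups overlapped for both. The cluster mates stood in a ratio, miR-195a-5p over miR-497a-5p, of 0.905 and 1.29 in Ptf1a-/- and 1.43 and 1.17 in Ptf1a+/-, with overlapping groups.

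mmu-miR-322-5p was the least abundant member and the most variable. It had 97 and 38 counts in Ptf1a-/- and 110 and 118 counts in Ptf1a+/-. On the scaled level these were 25.0 and 11.7 CPM in Ptf1a-/- and 28.4 and 25.1 CPM in Ptf1a+/-. Ptf1a-/- replicate 1 (25.03 CPM) was in effect tied with the lower Ptf1a+/- library (25.10 CPM), and replicate 2 lay far below it. The log2 fold change of -0.51 ± 0.35 (95% interval -1.36 to 0.34, adjusted p = 0.424, edgeR) was the largest in size among the 8 members, with the widest interval.

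Its partner mmu-miR-322-3p had 276 and 240 CPM in Ptf1a-/- and 254 and 229 CPM in Ptf1a+/- (log2 fold change 0.10 ± 0.13, 95% interval -0.22 to 0.42, adjusted p = 0.704, edgeR). The groups overlapped, and the low value of miR-322-5p in Ptf1a-/- replicate 2 had no counterpart in the 3p arm of the same precursor.

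**Figure D1:**
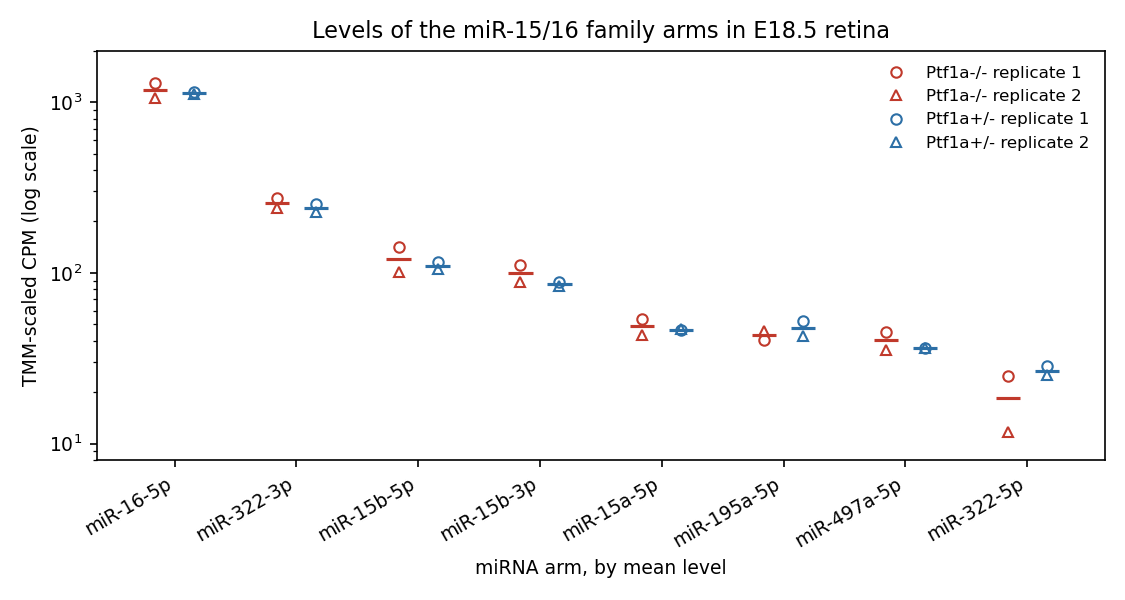
TMM-scaled CPM on a log axis for the 8 arms in each library, with Ptf1a-/- (red) left of Ptf1a+/- (blue), open circles for replicate 1, open triangles for replicate 2 and a bar at the mean of 2 libraries. The groups overlap for every arm but miR-322-5p, whose Ptf1a-/- libraries stand at 25.0 and 11.7 CPM and whose Ptf1a+/- libraries stand at 28.4 and 25.1 CPM. For that arm Ptf1a-/- replicate 1 and Ptf1a+/- replicate 2 are in effect tied.

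Ptf1a-/- replicate 1 lay above the Ptf1a+/- mean for 6 of 8 members (median log2 difference 0.21, against -0.02 over all arms). Of all arms, 48.8% lay above that mean in replicate 1 and 45.2% in replicate 2. Replicate 2 lay below it for 7 of 8 members (median -0.07, against -0.04). The ratio of the higher to the lower library exceeded that of the Ptf1a+/- pair in 7 of 8 members, miR-195a-5p being the exception. The share of all arms with a wider Ptf1a-/- ratio was not counted. Over arms with 20 to 2000 summed counts the Ptf1a-/- pair had the larger chi-square (14.3 against 1.11 per degree of freedom), computed without TMM factors. In miR-15a-5p, miR-15b-5p, miR-16-5p and miR-497a-5p the Ptf1a-/- pair enclosed both Ptf1a+/- libraries, a pattern not counted over all arms. Calls therefore turned on single libraries. Without Ptf1a-/- replicate 2, miR-16-5p, miR-15b-5p, miR-15b-3p and miR-322-3p passed as higher (4 of 8, against 23.6% of all arms). Without Ptf1a-/- replicate 1, miR-16-5p and miR-322-5p passed as lower (2 of 8, against 21.9% of all arms). miR-16-5p thus passed in opposite directions (log2 fold change 0.19 and -0.10, edgeR adjusted p = 1.27e-09 and 0.00604). In both fits the lone Ptf1a-/- library is assumed to vary as little as the Ptf1a+/- pair.

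**Figure D2:**
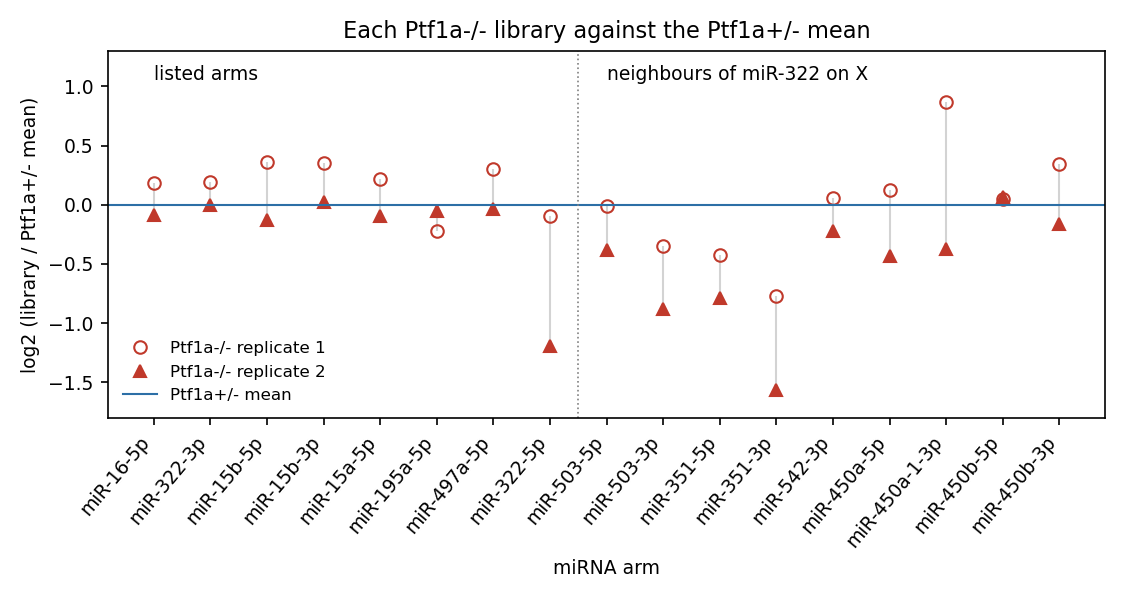
Log2 ratio of each Ptf1a-/- library (open circle, replicate 1; filled triangle, replicate 2) to the mean of the Ptf1a+/- libraries (line at 0), for the 8 members and for the measured arms of the X-linked cluster around Mir322. Replicate 1 is above 0 for 6 of 8 members and replicate 2 below 0 for 7 of 8, with miR-322-5p at -0.10 and -1.19. Of all arms, 48.8% are above 0 in replicate 1 and 45.2% in replicate 2.

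The members spanned a wide range of levels. Over the 4 libraries miR-16-5p ranged from 1064 to 1288 CPM over the 4 libraries, miR-322-3p from 229 to 276, miR-15b-5p from 101 to 141.7 and miR-15b-3p from 84.2 to 110. Below them came miR-15a-5p (43.4 to 53.9 CPM), miR-195a-5p (40.6 to 52.0), miR-497a-5p (35.4 to 44.9) and miR-322-5p (11.7 to 28.4). The ranges of the miR-15b arms overlapped, as did those of miR-15a-5p with miR-195a-5p and of miR-195a-5p with miR-497a-5p, so these neighbours were not separated beyond their spread. Each molecule is counted as 1 read whatever its length, so no length correction applies, but ligation and size selection favour some sequences, so levels of different arms are less comparable than levels of 1 arm between libraries.

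Together the 6 arms with the seed amounted to 1595 and 1302 CPM in Ptf1a-/- and 1421 and 1379 CPM in Ptf1a+/-, a log2 ratio of the means of 0.05 with overlapping groups. Without Ptf1a-/- replicate 1 this ratio was -0.11, and without replicate 2 it was 0.19. miR-16-5p supplied most of this pool, 80.8 and 81.8% in Ptf1a-/- and 80.4 and 81.4% in Ptf1a+/-. The next, miR-15b-5p, supplied 8.88 and 7.76% in Ptf1a-/- and 8.10 and 7.64% in Ptf1a+/-. The share of miR-322-5p was 1.57% (exact 95% interval 1.27 to 1.91) and 0.899% (0.637 to 1.23) in Ptf1a-/- and 2.00% (1.65 to 2.40) and 1.82% (1.51 to 2.18) in Ptf1a+/-. Such intervals cover counting error only. These shares do not depend on how libraries are scaled, and that of miR-322-5p was lower in both Ptf1a-/- libraries, with intervals that overlapped those of Ptf1a+/- for replicate 1 and not for replicate 2.

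The arms of each precursor were compared within a library, which also needs no scaling. The 5p arm of miR-322 made up 8.31% (exact 95% interval 6.79 to 10.0) and 4.65% (3.31 to 6.32) of its 5p and 3p counts in Ptf1a-/-, against 10.1% (8.35 to 12.0) and 9.89% (8.26 to 11.7) in Ptf1a+/-. Both Ptf1a-/- libraries were below both Ptf1a+/- libraries, with counting intervals that overlapped those of Ptf1a+/- for replicate 1 and not for replicate 2. The mean log2 ratio of 5p to 3p differed by -0.74, by -0.29 without Ptf1a-/- replicate 2 and by -1.19 without replicate 1. In all 4 libraries the 3p arm, which lacks the family seed, was the abundant one. For miR-15b the 5p share was 56.2 and 53.4% in Ptf1a-/- and 56.4 and 55.6% in Ptf1a+/-, so both of its arms were present at similar counts in each genotype. With 2 libraries a genotype, the smallest p of an exact two-sided permutation test is 0.333, so these shares are given without a test.

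**Figure D3:**
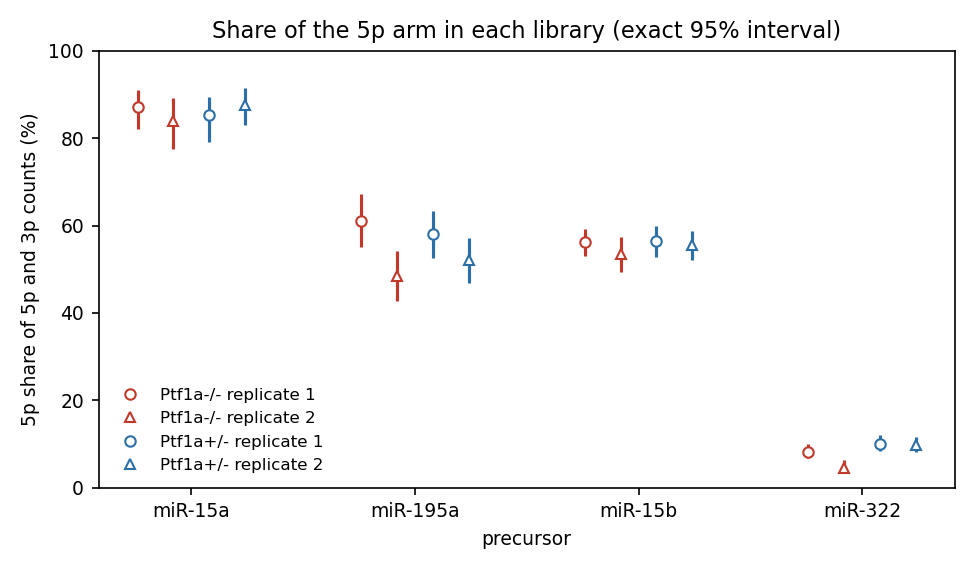
Share of the 5p arm among 5p and 3p counts of each of 4 precursors, in percent, with exact 95% binomial intervals (counting error only), Ptf1a-/- libraries in red left of Ptf1a+/- libraries in blue. The 5p share is highest for miR-15a (83.9 to 87.6%) and lowest for miR-322 (4.65 to 10.1%), where Ptf1a-/- replicate 2 is the lowest library.

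The other arms of the same precursors carry no family seed. Of 5 such arms 4 were measured, and 0 of the 4 passed in either direction (median log2 fold change -0.02, against -0.003 over all arms). miR-16-1-3p, from the Dleu2 locus, had 168 and 194 CPM in Ptf1a-/- and 216 and 221 CPM in Ptf1a+/- (-0.27 ± 0.13, 95% interval -0.58 to 0.04, adjusted p = 0.248, edgeR). It was the 1 arm of the 4 whose Ptf1a-/- libraries lay below both Ptf1a+/- libraries, against 31.5% of all arms. It passed as lower at -0.18 without Ptf1a-/- replicate 1, as did 21.9% of all arms, and at -0.38 without replicate 2, as did 23.7% of all arms. miR-16-2-3p, from the Smc4 locus, was scarce at 6.19 and 4.93 CPM in Ptf1a-/- and 5.68 and 5.32 CPM in Ptf1a+/-. miR-16-1-3p thus outnumbered miR-16-2-3p by 27.1 and 39.4 to 1 in Ptf1a-/- and by 38.0 and 41.5 to 1 in Ptf1a+/-. Between the miR-15 guides of the same loci the order was the opposite, with miR-15b-5p of the Smc4 locus over miR-15a-5p of the Dleu2 locus at 2.63 and 2.33 in Ptf1a-/- and 2.50 and 2.25 in Ptf1a+/-.

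miR-15a-3p stood at 8.0 and 8.31 CPM in Ptf1a-/- and 8.0 and 6.59 CPM in Ptf1a+/- (log2 fold change 0.17 ± 0.27, adjusted p = 0.762, edgeR). miR-195a-3p had 25.9 and 48.6 CPM in Ptf1a-/- and 37.7 and 39.1 CPM in Ptf1a+/- (-0.07 ± 0.30, adjusted p = 0.928, edgeR). Its log2 fold change was 0.33 without Ptf1a-/- replicate 1 and -0.57 without replicate 2. miR-497a-3p was listed at 0 in all 4 libraries, although the deposited sequence table records a most frequent sequence for it in Ptf1a+/- replicate 2, so no upper limit is drawn from the 0.

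The neighbours of Mir322 on the X chromosome were 11 arms of miR-503, miR-351, miR-542, miR-450a and miR-450b. Of the 11, 9 were measured and 0 of 9 passed in either direction (median log2 fold change -0.12, against -0.003 over all arms). miR-503-5p has a seed that nearly matches that of the family, as its most frequent sequence in 3 of 4 libraries shows.
miR-503-5p, most frequent: tAGCAGCGggaacagtact
It had 169 and 131 CPM in Ptf1a-/- and 171 and 169 CPM in Ptf1a+/- (-0.18 ± 0.16, adjusted p = 0.526, edgeR). miR-351-5p, the most abundant arm of the cluster, had 609 and 473 CPM in Ptf1a-/- and 838 and 798 CPM in Ptf1a+/- (-0.59 ± 0.15, adjusted p = 0.0638, edgeR). It passed as lower with DESeq2's test (-0.58, adjusted p = 0.0296) and in the fits without either Ptf1a-/- library. miR-351-3p (-1.07 ± 0.35, adjusted p = 0.121, edgeR) and miR-503-3p (-0.58 ± 0.20, adjusted p = 0.134, edgeR) also had both Ptf1a-/- libraries below both Ptf1a+/- libraries, and passed as lower without either Ptf1a-/- library. Those fits called many arms: 21.9% of all arms passed as lower and 23.7% as higher without replicate 1, and 23.7% as lower and 23.6% as higher without replicate 2. miR-503-5p and miR-542-3p passed as lower without Ptf1a-/- replicate 1 alone (-0.39 and -0.23). miR-450a-5p passed in opposite directions, at -0.45 without replicate 1 and 0.13 without replicate 2, and miR-450a-1-3p (0.87) and miR-450b-3p (0.36) passed as higher without replicate 2. The 4 arms of miR-503 and miR-351 were 4 of 9 below both Ptf1a+/- libraries (31.5% of all arms), miR-503-5p only by 169.284 CPM in Ptf1a-/- replicate 1 against 169.288 CPM in Ptf1a+/- replicate 2, which is in effect a tie, and miR-450b-5p was above both (1 of 9, against 26.7% of all arms).

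Set against miR-322-3p in the same library, miR-351-5p stood at 2.2 and 1.97 in Ptf1a-/- and at 3.30 and 3.49 in Ptf1a+/-, a ratio that no scaling affects and whose groups did not overlap. For miR-503-5p over miR-322-3p the ratios were 0.613 and 0.545 in Ptf1a-/- and 0.675 and 0.740 in Ptf1a+/-. How often ratios of other arms part by genotype was not counted, so neither ratio is read as a difference.

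**Figure D4:**
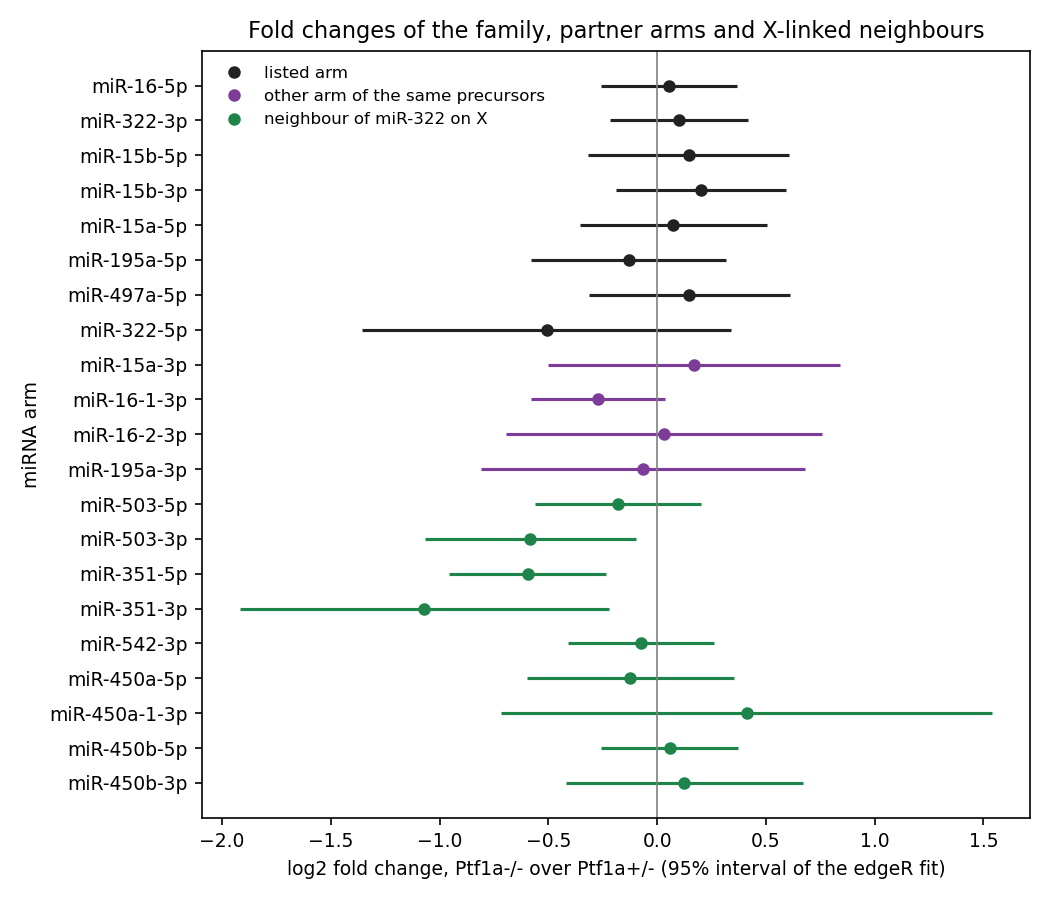
Log2 fold change of Ptf1a-/- over Ptf1a+/- with the 95% interval of the edgeR fit (2 libraries per genotype) for the 8 members (black), the 4 measured other arms of the same precursors (purple) and the 9 measured X-linked neighbours of Mir322 (green). The intervals of all 8 members include 0, and the lowest estimate is that of miR-351-3p at -1.07.

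Related groups were measured in the same fit. Of 5 arms of miR-103 and miR-107, whose 5′ ends resemble that of the family shifted by a base, 2 were measured and 0 of 2 passed. miR-103-3p had 3521 and 3063 CPM in Ptf1a-/- and 2647 and 2599 CPM in Ptf1a+/- (log2 fold change 0.33 ± 0.12, adjusted p = 0.152, edgeR), with both Ptf1a-/- libraries above both Ptf1a+/- libraries, and miR-107-3p stood at 0.02 ± 0.18 (adjusted p = 0.961, edgeR). The log2 fold change of miR-103-3p was 0.22 without Ptf1a-/- replicate 1 and 0.43 without replicate 2, and that of miR-107-3p -0.25 and 0.25. Of 11 arms of miR-34 and miR-449, another group that restrains the cell cycle, 7 were measured and 0 of 7 passed (median -0.004, against -0.003 over all arms). Its most abundant arm, miR-34c-5p, had 287 and 316 CPM in Ptf1a-/- and 278 and 276 CPM in Ptf1a+/- (0.12 ± 0.11, adjusted p = 0.555, edgeR). Without Ptf1a-/- replicate 1 its log2 fold change was 0.18. Of the 7, 2 were above both Ptf1a+/- libraries (26.7% of all arms) and 2 below both (31.5% of all arms). The 2 below were miR-34b-3p (-0.71, adjusted p = 0.152, edgeR) and miR-449c-5p (-1.20, adjusted p = 0.107, edgeR). miR-34b-3p stood at -0.81 without Ptf1a-/- replicate 1 and -0.64 without replicate 2. miR-449c-5p was scarce, with 6 and 4 counts in Ptf1a-/- and 13 and 15 counts in Ptf1a+/-, and stood at -1.39 without replicate 1.

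Markers of tissue around the retina were set beside these values because miR-195, miR-497 and miR-322 are also made in vessels, mesenchyme and muscle. Of 5 vessel and mesenchyme miRNAs 3 were measured and 0 of 3 passed. In 2 of 3 the Ptf1a-/- libraries lay below both Ptf1a+/- libraries (31.5% of all arms). miR-143-3p was 1 of them (13.2 and 20.6 CPM in Ptf1a-/-, 33.8 and 34.2 CPM in Ptf1a+/-, log2 fold change -1.03, adjusted p = 0.0638, edgeR). The other was miR-126a-3p (324 and 545 CPM in Ptf1a-/-, 546 and 564 CPM in Ptf1a+/-). Its replicate 2 in Ptf1a-/- (545.164 CPM) and replicate 1 in Ptf1a+/- (545.888 CPM) were in effect tied. The third, miR-199a-3p, had 30.5 and 28.3 CPM in Ptf1a-/- and 29.8 and 27.6 CPM in Ptf1a+/- (0.03, adjusted p = 0.943, edgeR). The summed level of the 5 was 368 and 595 CPM in Ptf1a-/- and 610 and 627 CPM in Ptf1a+/-, with miR-145a-5p at or near 0 in every library. Outside that list, miR-199a-5p, named after its values were seen, passed as lower, as did 3.6% of all arms. It had 11.9 and 13.2 CPM in Ptf1a-/- and 28.0 and 24.0 CPM in Ptf1a+/- (-1.05, adjusted p = 0.0430, edgeR). Also outside the list, miR-126a-5p (0.31, adjusted p = 0.530, edgeR) and miR-199b-5p (-0.14, adjusted p = 0.861, edgeR) did not pass. The summed 3 striated muscle miRNAs stood at 65.0 and 70.3 CPM in Ptf1a-/- and 48.5 and 51.1 CPM in Ptf1a+/-, with 0 of 3 passing. Of 5 blood miRNAs 2 were measured and 0 of 2 passed (summed 67.0 and 98.8 CPM in Ptf1a-/-, 79.1 and 74.1 CPM in Ptf1a+/-), and miR-451a, a marker of red cells, had at most 0.308 CPM in Ptf1a-/- and 0.213 CPM in Ptf1a+/-. Among the lens and surface epithelium markers 1 of 3 measured, miR-200b-3p, passed as lower, against 3.6% of all arms. It was scarce, with 1 and 3 counts in Ptf1a-/- and 25 and 31 counts in Ptf1a+/-. These markers summed to 227 and 300 CPM in Ptf1a-/- and 305 and 292 CPM in Ptf1a+/-. For pigment epithelium 0 of 2 miRNAs passed (summed 2951 and 3276 CPM in Ptf1a-/-, 3293 and 3337 CPM in Ptf1a+/-). The vessel and mesenchyme sum was lowest in Ptf1a-/- replicate 1 and miR-322-5p in Ptf1a-/- replicate 2; the part of such tissue in the values of the members was not tested.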

How the data were processed

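Small RNA of 18 to 30 nt was gel-purified from retina, per the labels' protocols. The submitters' processing notes name bcl2fastq 2.20.0.422; the sources used here do not name an aligner, counter or build. The authors deposited estimated counts per mature miRNA (5.73 to 7.84% of values per library not whole), a CPM table of these counts divided by a larger total per library, and, per the file headers, a text table of the most frequent sequence against miRBase22. No molecular identifiers are described. No column lacked a sample. Counts were rounded. Arms with 10 or more counts in 2 libraries (584) were tested for Ptf1a-/- over Ptf1a+/- with edgeR 4.0.16 in R 4.3.3 (quasi-likelihood F test, TMM scaling, genotype as the only term), adjusted by Benjamini-Hochberg and called under 0.05. The test was tried on simulated data, but no result of that trial is given here and none of the values rests on it. TMM factors were 1.06 and 0.829 in Ptf1a-/- and 1.06 and 1.07 in Ptf1a+/-. Levels are TMM-scaled CPM of the unrounded values. Errors of log2 fold changes are SE from the fit. DESeq2 1.42.0 and limma 3.58.1 served as alternatives. Sequences come from RefSeq (GRCm38.p6, all 8 members matched) and host genes from GENCODE M21 (GRCm38). The named arms are the 8 members, the partner arms, the X-linked neighbours, miR-103 and miR-107, miR-34 and miR-449, and the 3 arms of 100 CPM or more closest in pattern to miR-16-5p. Members and lists were chosen with earlier results of these data known.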

Additional observations from a re-analysis of the deposited data

How the results depend on the processing

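No member passed, in either direction, under any of the 10 alternatives that kept every library or summed the Ptf1a+/- pair; of 80 member values there, 63 kept their direction and 17 took the other, all 17 under scalings that shift the median of all arms down. The median of all arms was -0.18 with library size alone, -0.34 with the totals behind the deposited CPM and -0.33 with limma on the deposited CPM, and the members' median stayed above it by 0.10, 0.10 and 0.07. In that order of settings the log2 fold change was -0.10, -0.25 and -0.28 for miR-15a-5p, -0.012, -0.17 and -0.22 for miR-15b-5p, -0.11, -0.25 and -0.30 for miR-16-5p, -0.066, -0.22 and -0.25 for miR-322-3p, and -0.022, -0.18 and -0.20 for miR-497a-5p. miR-15b-3p stood at -0.12 and -0.15 in the last 2. The summed level of the arms with the seed was -0.26 with the totals behind the deposited CPM. miR-195a-5p and miR-322-5p were below 0 in all 14 alternatives.

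Leaving out 1 library in turn gave 0 to 4 members higher and 0 to 2 lower, and ranges of -0.11 to 0.22 for miR-15a-5p, -0.13 to 0.37 for miR-15b-5p, -0.10 to 0.19 for miR-16-5p, -0.0086 to 0.21 for miR-322-3p, -0.049 to 0.31 for miR-497a-5p, 0.020 to 0.36 for miR-15b-3p, -0.29 to -0.0058 for miR-195a-5p and -1.19 to -0.084 for miR-322-5p. Where 1 library is left in a genotype, it is assumed to vary like the other genotype's pair. Over all arms 57 were called (36 higher, 21 lower), against 16 with library size alone (4 and 12), 29 with the totals behind the deposited CPM (2 and 27), 28 with limma on the deposited CPM, 21 with no filter, 12 with the replicate block, 1 with the Ptf1a+/- pair summed and 0 to 273 with 1 library left out. With no filter 1255 arms share the adjustment; the other causes were not tested. The deviations of same-numbered libraries had a correlation of 0.003 over 340 arms. The Ptf1a+/- pair spread little beyond read sampling, so this value cannot tell whether the replicate numbers pair the libraries. The block called none of the 8 members.
Among the members miR-322-5p had 38 to 118 counts per library and an SE of 0.35. The scarcer miR-15a-3p (27 to 31 counts) had an SE of 0.27 and miR-16-2-3p (16 to 25 counts) one of 0.30. How the SE depends on counts over all arms was not tested.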

Other observations

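By Euclidean distance between centred log2 levels over the 4 libraries, the arms most like miR-16-5p among 197 others with a mean of 100 CPM or more were miR-9-3p (distance 0.027), miR-708-5p (0.039) and miR-221-3p (0.046), against a median distance of 0.438. miR-9-3p, the partner arm of the neural progenitor miRNA miR-9, had 5320 and 4440 CPM in Ptf1a-/- and 4713 and 4560 CPM in Ptf1a+/-. In each of the 3, as in miR-16-5p, Ptf1a-/- replicate 1 was the highest library and replicate 2 the lowest, which follows from their choice by distance. The points are 4 libraries that share their scaling.

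The ratio of miR-16-5p to miR-16-1-3p, one of its partner arms, was 7.69 and 5.48 in Ptf1a-/- and 5.29 and 5.09 in Ptf1a+/-. It is free of library scaling, and the groups did not overlap, though Ptf1a-/- replicate 2 was nearer to the Ptf1a+/- libraries than to Ptf1a-/- replicate 1. How often ratios of other arms part by genotype was not counted, so no conclusion is drawn from the gap. miR-16-5p also comes from Mir16-2, so the ratio is not that of 1 precursor.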
